A study of Mus musculus with 4 samples.

Results

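The genes described here encode 3 Janus kinases (Jak1, Jak2 and Jak3), 4 STAT transcription factors (Stat3, Stat4, Stat5a and Stat5b) and 3 inhibitors of the SOCS family (Socs1, Socs3 and Cish). They were chosen by name, with earlier results of these data known, and all 10 were found in a table of 47643 genes. None of the 10 passed edgeR's quasi-likelihood test between Il10-eGFP+ and Il10-eGFP- T cells. Stat3 transcripts lay lower and Socs3 transcripts higher in both Il10-eGFP+ libraries, but neither gene reached an adjusted p of 0.05 in that test. Limma voom, an alternative, called Socs3 (adjusted p = 0.0377). Around them, by edgeR, Socs2, another SOCS gene, rose, the common gamma chain Il2rg fell, and the receptor chains Il7r, Il12rb2 and Ifngr1 rose. Each of these calls was lost under some of the alternative fits given below.

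The libraries came from CD4+ T cells sorted from the spleen of Tg4 Nr4a3-Tocky IL-10 GFP mice, taken 24 h after [4Y] MBP peptide was injected under the skin at 4 mg/kg. Tg4 is a transgenic T cell receptor for this myelin basic protein peptide, Nr4a3-Tocky is a fluorescent Timer reporter switched on below that receptor, and the third allele reports Il10 by eGFP. Both sorted populations were Timer+ and had met the same peptide, so they differ by the Il10 reporter alone in their labels, and unstimulated cells are not part of the comparison. There were 2 libraries per population, with 644679 to 730330 counts each. The labels speak of 2 replicate mice for the groups without saying whether 1 mouse gave both populations, and a further replicate pair that the study set aside as an outlier was not analysed here.

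JAK kinases sit on the inner side of cytokine receptors. When a cytokine binds, they phosphorylate the receptor and then STAT proteins, which pair up, enter the nucleus and switch on target genes. In T cells, Jak1 and Jak3 serve the gamma chain cytokines such as IL-2 and IL-7 through Stat5a and Stat5b, IL-12 acts through Jak2, Tyk2 and Stat4, and IL-6, IL-10, IL-21 and IL-27 act largely through Stat3. Many STAT targets close the loop: Cish, Socs1 and Socs3 are made in response to cytokines and block the receptor or its kinase. STAT phosphorylation, on which the pathway runs, is not seen in RNA.

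The promoters of Cish and Socs3 are shown because they alone among the 10 genes held the letters of the GAS motif, TTCNNNGAA, the pattern that STAT dimers are known to bind (its own reverse complement, so that 1 search covers both strands). RefSeq promoter windows of 300 bases, from 250 before to 50 after an annotated start on GRCm38.p6, were present for all 10 genes. Cish held 2 matches, the first beginning at the annotated start itself, and Socs3 held 1 match that began 154 bases before the start. The windows of the other 8 genes held none. Of all genes with a window in the table, 9.55% held a match, beside 2 of these 10. Of all 32851 windows, 8.30% held one, beside 2 of the 13 windows of the 10 genes. The sequences below run 5′ to 3′ on the strand of the gene, with the matches in capitals; Cish lies on the plus strand at chr9:107296589-107296688 and Socs3 on the minus strand at chr11:117969457-117969566.
Cish: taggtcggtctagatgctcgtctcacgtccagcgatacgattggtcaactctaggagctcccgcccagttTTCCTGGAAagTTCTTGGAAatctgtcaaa
Socs3: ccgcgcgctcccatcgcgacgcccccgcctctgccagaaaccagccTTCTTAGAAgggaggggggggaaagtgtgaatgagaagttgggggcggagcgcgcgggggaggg
A match describes these letters and is not a measured binding site. Beside it, Cish counts were 38 and 32 without the reporter and 29 and 29 with it, and Socs3 counts were 56 and 25 without and 59 and 71 with it, so the pair did not lie on the same side.

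Levels are given as CPM (the count of a gene as a share of its library, set to a common total) scaled by TMM factors, which correct for differences in library makeup. Reads came from the 3′ end of transcripts, so a count does not grow with gene length and CPM can be set side by side between genes, as far as their ends are read equally well. Jak1 was the most abundant of the 10 at 373.3 CPM over the 4 libraries, and Stat3 followed at 172.6 CPM. Both stood clear of the genes below them in each population. From Stat5b (83.0 CPM) through Socs3, Stat4, Jak3, Jak2, Socs1 and Cish to Stat5a (41.7 CPM), neighbouring genes overlapped over the 4 libraries at every step except that from Jak3 (67.2 CPM) to Jak2 (49.5 CPM). Within the populations the order differed: Socs3 took place 6 in Il10-eGFP- cells, where it overlapped its neighbours Jak3 and Socs1, and place 3 in Il10-eGFP+ cells, where it overlapped neither Stat3 nor Stat5b. Counts of the 10 genes ran from 24 to 270 in a library, so precision was set by few reads for most of them.

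**Figure D1:**
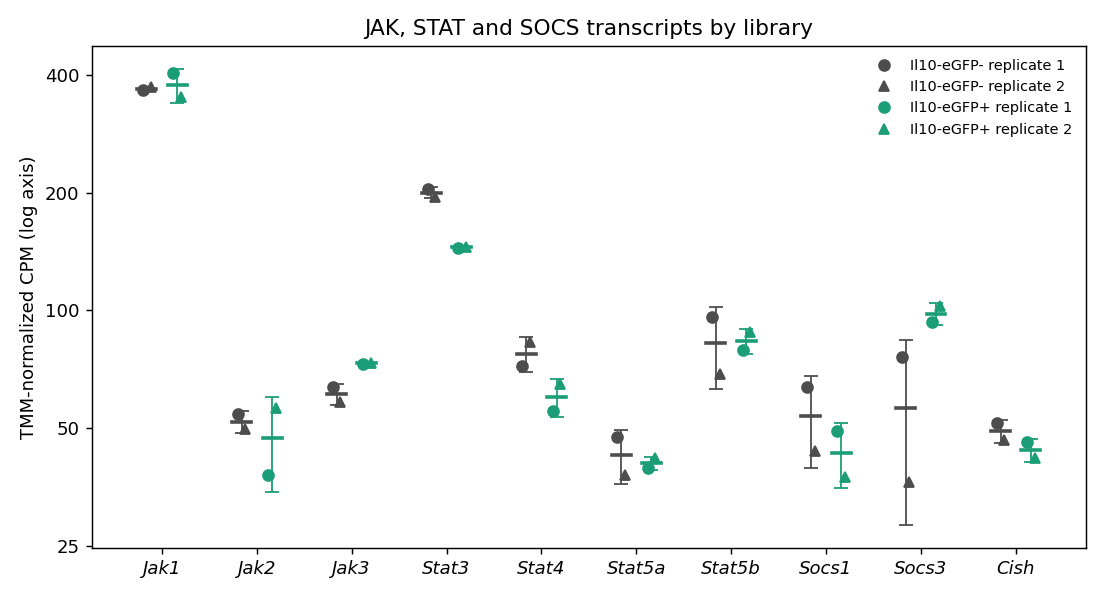
TMM-normalized CPM on a log axis for each of the 10 genes; circles and triangles are replicates 1 and 2, grey for Il10-eGFP- and green for Il10-eGFP+ libraries, with bars for the mean and whiskers for the SD (n = 2 each). Jak1 and Stat3 sit above the other genes, and the Stat3 and Socs3 symbols of the populations are apart.

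The first comparison asked whether the kinases differed between cells that had and had not switched on Il10. Jak1, a kinase of many cytokine receptors, was counted 270 and 255 times in Il10-eGFP- cells and 255 and 243 times in Il10-eGFP+ cells. These were 369.3 ± 3.94 and 377.3 ± 37.8 CPM (SD, n = 2 each), and the libraries overlapped. The log2 fold change was 0.03, with a 95% interval of -0.27 to 0.33 (edgeR's quasi-likelihood test), which is the tightest of the 10 genes. Expressed as a ratio, the interval runs from 0.832 to 1.25. Raver2, on the other strand, shares 4 exonic bases at the Jak1 end and had 1, 1, 0 and 0 counts.

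Jak3, the partner of the gamma chain, was counted 47 and 40 times in Il10-eGFP- cells and 46 and 51 times in Il10-eGFP+ cells. Its levels of 61.1 ± 3.84 and 73.2 ± 0.487 CPM (SD, n = 2 each) did not overlap, but the difference was small for the counts behind it (log2 fold change 0.26, interval -0.27 to 0.79, adjusted p = 0.729, edgeR). The last 404 bases of Jak3 exons are also annotated as exons of Insl3 on the same strand, and Insl3 was listed at 0 in each library. How reads shared by both genes were counted is not given in the sources used here, so the Jak3 level is uncertain.

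Jak2, which serves the IL-12 and IFNγ receptors, had 40 and 34 against 24 and 39 counts. The 2 Il10-eGFP+ libraries lay on either side of the Il10-eGFP- libraries, at 38.0 and 56.3 CPM against 54.3 and 49.6 CPM, and the log2 fold change of -0.13 had an interval from -0.75 to 0.49. Jak1 made up most kinase counts in every library. Its share of the 3 genes was 75.6% and 77.5% in Il10-eGFP- cells, against 78.5% and 73.0% in Il10-eGFP+ cells, with Wilson 95% intervals between 68.0% and 82.6% that cover counting error only.

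Among the STAT genes, Stat3, the transducer of IL-6, IL-10, IL-21 and IL-27 signals, had the clearest separation. Its counts were 151 and 134 in Il10-eGFP- cells against 91 and 101 in Il10-eGFP+ cells, or 205.0 and 195.5 CPM against 144.2 and 145.7 CPM. The libraries of each population lay close together and the populations did not overlap. The means were 200.2 ± 6.68 and 145.0 ± 1.07 CPM (SD, n = 2 each), a log2 fold change of -0.47 (standard error 0.18, interval -0.83 to -0.10), which is a level 27.6% lower. Its unadjusted p in edgeR's quasi-likelihood test was 0.0134 and its p adjusted over all genes was 0.153, so Stat3 was not called. With each library left out in turn the log2 fold change stayed between -0.50 and -0.43.

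Stat4, the transducer of IL-12 and a driver of the Th1 program, had 53 and 57 against 35 and 45 counts. Its CPM values of 71.9 and 83.2 in Il10-eGFP- lay above those of 55.5 and 64.9 in Il10-eGFP+ libraries. The log2 fold change was -0.36 with an interval from -0.89 to 0.17 (adjusted p = 0.573, edgeR), so it includes no change. Gm28177, which shares 1033 exonic bases with Stat4 on the same strand, was listed at 0 in each library.

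Stat5a and Stat5b, close relatives that act below IL-2 and IL-7, overlapped between the populations. Stat5b had 71 and 47 counts against 50 and 61, or 82.5 ± 19.7 and 83.6 ± 6.21 CPM (SD, n = 2 each), with a log2 fold change of 0.02 (interval -0.48 to 0.51) whose sign changed when library size was the only scaling. Stat5a had 35 and 26 counts against 25 and 29, and a log2 fold change of -0.07 (interval -0.73 to 0.59). Stat5b gave 67.0% and 64.4% of the Stat5 counts in Il10-eGFP- cells, against 66.7% and 67.8% in Il10-eGFP+ cells, with Wilson 95% intervals between 52.9% and 76.5%.

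Stat5b, Stat5a and Stat3 are neighbours on chromosome 11 of GRCm38, and this bears on their counts. Stat5b spans 100780731 to 100850724 on the minus strand, Stat5a 100859351 to 100885169 on the plus strand and Stat3 100885098 to 100939540 on the minus strand. Stat5b and Stat5a start 8626 bases apart and point away from each other. Stat5a and Stat3 run toward each other, and their exons share the last 72 bases at both 3′ ends, where this method places its reads. The sources used here do not say whether the counting used strand. Stat5a and Stat5b also have similar ends: of the different 50-base sequences in the last 500 bases of annotated transcripts, Stat5b shared 140 of 902 with transcripts of Stat5a. Reads from such stretches could not be placed with one gene, so the split between Stat5a and Stat5b is less certain than the counting interval.

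**Figure D2:**
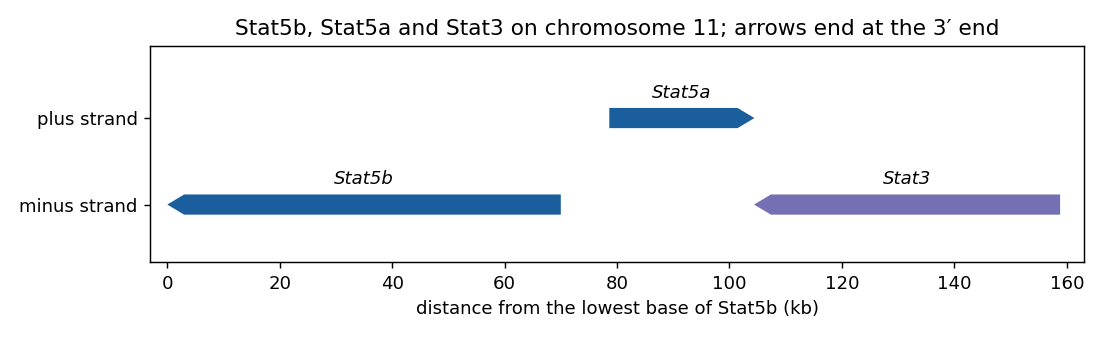
Map to scale of Stat5b, Stat5a and Stat3, with distance in kb from the lowest base of Stat5b on the x axis and the strand on the y axis; arrow tips mark 3′ ends. Stat5a and Stat3 meet tip to tip, where they share 72 bases.

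The SOCS genes gave the largest difference among the 10. Socs3, which binds gp130 and JAKs and holds back Stat3 signals, was counted 56 and 25 times in Il10-eGFP- cells and 59 and 71 times in Il10-eGFP+ cells. In CPM, 76.0 and 36.5 stood against 93.5 and 102.4. The Il10-eGFP- libraries were far apart, and both lay below the Il10-eGFP+ libraries. The means were 56.2 ± 28.0 and 98.0 ± 6.32 CPM (SD, n = 2 each), and the log2 fold change was 0.79 (standard error 0.27, interval 0.25 to 1.33), a level 1.73 times as high. With an unadjusted p of 0.00482 and an adjusted p of 0.0848 in edgeR's quasi-likelihood test, Socs3 was not called.

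The call of Socs3 depended on the test and on which Il10-eGFP- library was kept. With Il10-eGFP- replicate 1 left out, Socs3 stood at 1.42 on the log2 scale with an adjusted p of 0.00696 (edgeR), and with Il10-eGFP- replicate 2 left out at 0.37 with 0.675, where the lone Il10-eGFP- library is assumed to vary like the others. Limma voom on all 4 libraries gave an adjusted p of 0.0377 and DESeq2's Wald test 0.559. Stat3 was called under none of the 14 alternatives, with log2 fold changes from -0.50 to -0.25, the last on the rlog values.

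**Figure D3:**
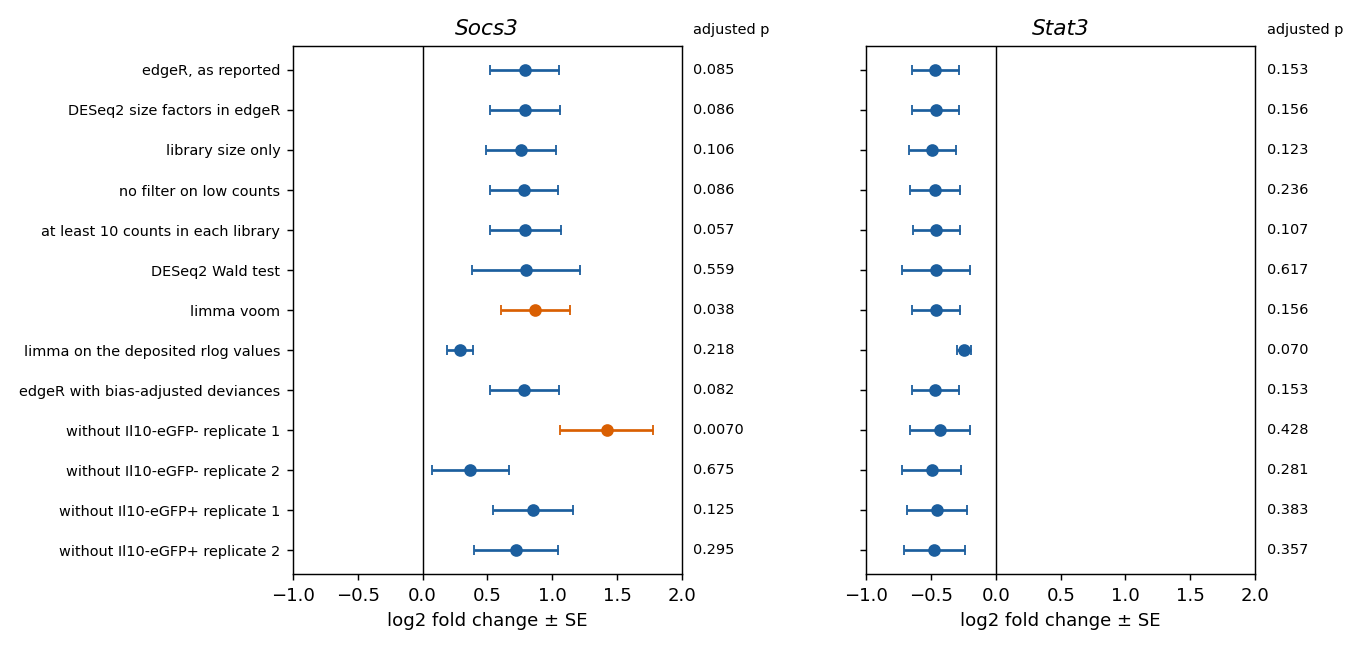
Log2 fold change (x axis, points, with the standard error as whiskers) of Socs3 and Stat3 under each test, filter, scaling and left-out library (the fits with a replicate block are not drawn), with the adjusted p at the right of each row; orange marks an adjusted p under 0.05. Socs3 runs from 0.29 to 1.42 and is orange for limma voom and without Il10-eGFP- replicate 1, and Stat3 lies below 0 in each row with no orange point.

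Socs1, which inhibits the kinases themselves and restrains IFNγ and gamma chain signals, had 47 and 30 against 31 and 26 counts. Its CPM values of 63.8 and 43.8 overlapped with 49.1 and 37.5 (log2 fold change -0.32, interval -0.95 to 0.31). With each library left out in turn, the log2 fold change of Socs1 ran from -0.56 to -0.02. Cish, an inhibitor made in response to Stat5, had 49.1 ± 3.46 CPM in Il10-eGFP- and 43.9 ± 2.91 CPM in Il10-eGFP+ libraries (SD, n = 2 each). The libraries did not overlap, yet the log2 fold change of -0.17 had an interval from -0.79 to 0.46. Antisense genes Gm17040 and Gm17041, which overlap Cish exons, were listed at 0 in each library.

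Taking all 10, 0 were called by edgeR's quasi-likelihood test, where 4.09% of the 9608 genes tested were called (2.35% higher and 1.74% lower). At an unadjusted p under 0.05 there were 2 (Stat3 and Socs3), where 15.5% of all genes were under that limit. DESeq2's Wald test also called 0, limma on the rlog values 0 and limma voom 1 (Socs3). In 5 of the 10 genes (Jak3, Stat3, Stat4, Socs3 and Cish) the populations did not overlap, 2 higher and 3 lower, and this was so for 44.6% of all genes (22.3% higher and 22.3% lower). The median log2 fold change was -0.10, against 0.00 (rounded) over all genes tested. For 9 of the 10 genes the 95% interval lay within a log2 change of 1 in either direction, and for Socs3 it reached 1.33. These 9 intervals lie within a 2-fold change, and 8 of the 10 include 0, so that for those 8 no difference was detectable at this depth.

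**Figure D4:**
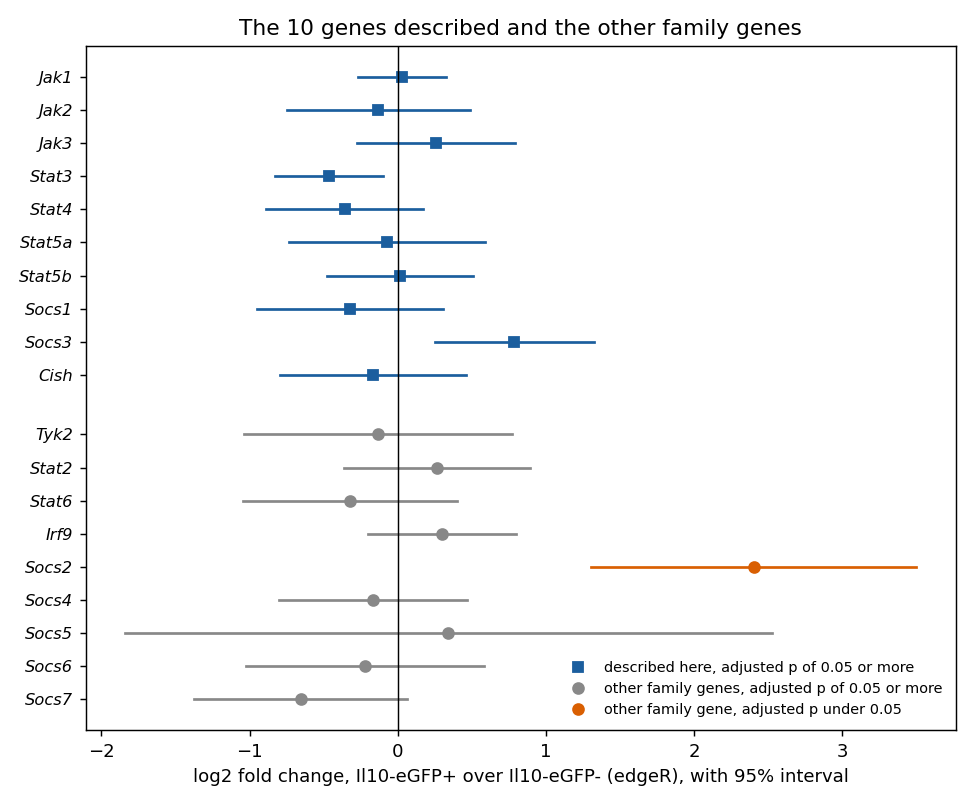
Log2 fold change (x axis) of the 10 genes (squares) and of 9 other JAK, STAT and SOCS family genes (circles), with 95% intervals from edgeR's quasi-likelihood test as lines. Only Socs2 is marked in orange for an adjusted p under 0.05, and the intervals of Stat3 and Socs3 among the 10 leave out 0.

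**Figure D5:**
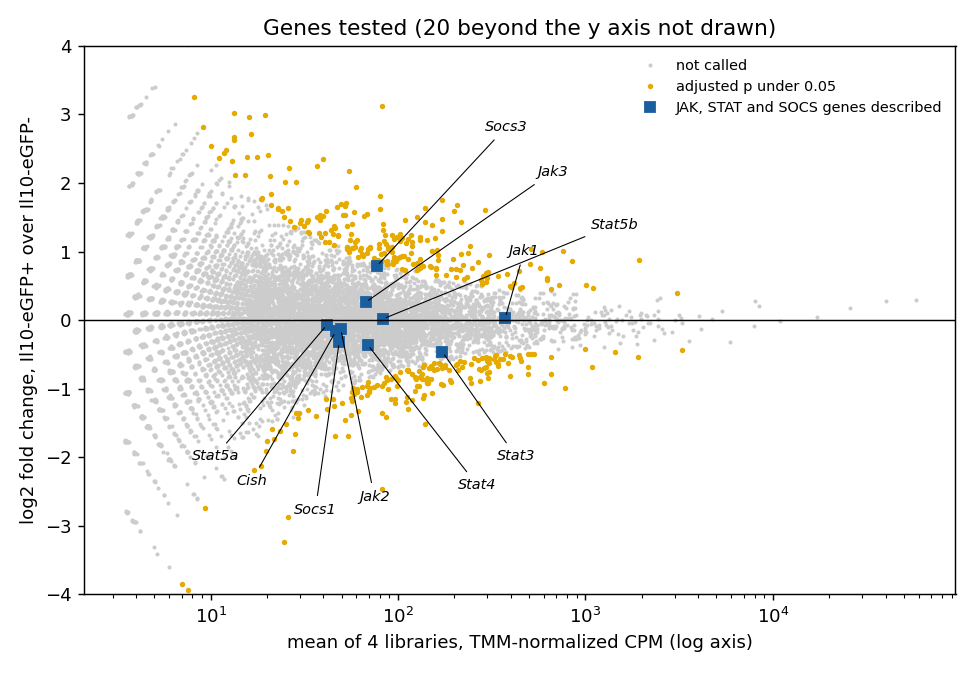
Log2 fold change (y axis) against mean TMM-normalized CPM (x axis, log scale) of the genes tested, grey where not called and yellow at an adjusted p under 0.05, with the 10 genes as blue squares. The squares lie among the grey points, with Socs3 and Stat3 near the yellow bands; 20 genes lie beyond the y axis.

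The deposited rlog values, in which differences at low counts are shrunk, put the 10 genes in a narrower range. The difference of the population means was largest for Socs3 (5.52 in Il10-eGFP-, 5.81 in Il10-eGFP+, difference 0.29) and Stat3 (6.98 and 6.74, difference -0.25). Stat4 followed at -0.12, Jak3 at 0.09 and Socs1 at -0.08, and the other 5 lay between -0.04 and 0.02.

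The other genes of the pathway were read from 5 lists of 76 genes, of which 67 were tested. In the rest of the family, 1 of 9 genes rose and 0 fell. Socs2, an inhibitor of growth hormone receptor and other cytokine signals, was counted 6 and 3 times in Il10-eGFP- cells and 28 and 17 times in Il10-eGFP+ cells. On the log2 scale it rose by 2.40 with a standard error of 0.55 (edgeR, adjusted p = 0.00374). Without Il10-eGFP+ replicate 1 its adjusted p was 0.179, limma on the rlog values gave 0.121, and DESeq2 gave none. Of the uncalled genes, Irf9, a DNA-binding partner of STAT proteins below type I interferon, had a log2 fold change of 0.30 (interval -0.20 to 0.80). Stat2, which works with Irf9, had 24 and 40 against 33 and 39 counts and a log2 fold change of 0.27 (interval -0.36 to 0.89).

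None of 11 brakes outside the SOCS family was called by edgeR, DESeq2's Wald test or either limma fit, with 1 at an unadjusted p under 0.05 in edgeR. Ptprc, the phosphatase CD45, was at 0.11 (interval -0.14 to 0.36) and Ptpn1 at 0.12 (interval -0.20 to 0.44) on the log2 scale. Over the 11 brakes the median was 0.11 on the same scale.

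The receptor chains that hand signals to these kinases held most of the calls upstream, with 3 of 18 tested genes higher and 1 lower. Il2rg, the gamma chain that binds Jak3, fell from 433.3 ± 6.22 to 308.9 ± 2.32 CPM (SD, n = 2 each), by 0.49 on the log2 scale with a standard error of 0.15 (edgeR, adjusted p = 0.0427), while its partner Jak3 stood at 0.26. DESeq2's Wald test gave Il2rg an adjusted p of 0.222, and leaving out any single library gave 0.130 to 0.207 (edgeR). Il7r, Il12rb2 and Ifngr1 had log2 fold changes of 1.53, 1.24 and 0.88, and the study itself names Il12rb2 and Ifngr1 from these libraries, so their direction is not independent evidence. Ifngr1 was not called by DESeq2's Wald test (adjusted p = 0.404), nor by edgeR without Il10-eGFP- replicate 1 (0.404) or Il10-eGFP+ replicate 1 (0.306). Il12rb2 was not called by edgeR without Il10-eGFP+ replicate 2 (adjusted p = 0.0924), and Il7r had an adjusted p of 0.0614 in DESeq2's Wald test. Il2ra (0.12) and Il2rb (-0.09), the other IL-2 receptor chains, were not called.

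Of 12 cytokine genes, 6 had too few counts to be tested. Il10, the reporter gene, was at 0 in both Il10-eGFP- libraries and was counted 29 and 41 times in Il10-eGFP+ cells, which were sorted on its reporter. It was the 1 gene of the list that was called. Il21, a Stat3 cytokine made by T cells, had 89 and 70 against 53 and 76 counts (log2 fold change -0.20, interval -0.65 to 0.24). Osm had a log2 fold change of 0.20 (interval -0.72 to 1.12).

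Among 23 tested genes known as STAT targets, 3 rose and 1 fell. Pim1, a survival kinase induced by Stat3 and Stat5, rose from 293.8 ± 6.88 to 468.0 ± 17.1 CPM (SD, n = 2 each), by 0.67 on the log2 scale with a standard error of 0.15 (edgeR, adjusted p = 0.00240). Maf (1.00) and Prdm1 (2.18), transcription factors tied to Il10, also rose, and the study itself names both. Myc, which drives cell growth, fell, with 27 and 19 against 7 and 7 counts (log2 fold change -1.59, adjusted p = 0.0465, edgeR), and was not called by limma voom (adjusted p = 0.0673) or when any single library was left out (0.0710 to 0.303, edgeR). The cyclins Ccnd2 (-0.34) and Ccnd3 (0.40) were not called by edgeR, though limma voom called Ccnd2. The median of the list was 0.01, with 12 point estimates above 0 and 11 below.

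All told, 10 of the 67 tested pathway genes were called, 8 of them higher, beside 4.09% of all genes. The lists were written with earlier results of these data known, so this share is no test of the pathway.

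Markers of other cells moved between the populations and stand beside the values of Socs3, Socs2 and the receptor chains. The summed level of 9 CD4 T cell markers was 2406 to 2484 CPM in Il10-eGFP- and 3118 to 3288 CPM in Il10-eGFP+ libraries, with 1 of 9 (Trac) called. B cell markers summed to 133.0 and 214.5 against 549.8 and 594.4 CPM, with 5 of 10 called higher (Igkc, Ighm, Jchain, Cd22 and H2-Aa) and the point estimates of all 8 tested above 0. Igkc, an antibody light chain, was counted 6 and 18 against 81 and 116 times, and Jchain, which joins antibody units, 0 and 0 against 15 and 16 times. Cd79a, a defining marker of B cells, was counted 2 and 0 against 0 and 0 times. Myeloid markers summed to 191.4 and 221.8 against 532.4 and 318.8 CPM, with 2 of 10 called higher (S100a8, 1 and 17 against 58 and 28 counts, and Lyz2, 29 and 23 against 66 and 34), 8 of 9 point estimates above 0 and Cd14 at 0 in each library. CD8 and NK cell markers summed to 50.2 and 84.6 against 91.9 and 103.9 CPM, with 1 of 8 called (Gzma) and Ncr1 at 0 in each library. Of the 5 tested, 2 point estimates lay above 0 and 3 below. Cd8a, at 4 and 10 against 3 and 3 counts, and Cd8b1, at 18 and 17 against 7 and 13, were lower. Of 7 Treg markers 1 (Ctla4) was called, and Foxp3 had 10 and 6 against 6 and 1 counts. The part of such cells in the results above was not tested. In sorted bulk samples, fewer cells that express a gene and less RNA per cell cannot be told apart.

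The genes closest to Socs3 and Stat3 in pattern were sought among the 2609 genes whose mean count reached 50, as the distance between log2 CPM values centred on each gene over the 4 libraries. For Socs3 they were H2afv (0.23), Dock10 (0.36) and Capns1 (0.36), which also had their lowest count in Il10-eGFP- replicate 2. For Stat3 they were Imp3 (0.03), Nol11 (0.03) and Cnn3 (0.04).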

How the data were processed

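mRNA of sorted cells was read at its 3′ end (QuantSeq FWD). Per the labels and methods, the authors aligned reads to GRCm38 with STAR 2.5.2a and deposited raw read counts per gene from HTSeq 0.6.0. The methods state that molecular identifiers served to evaluate duplicates and to remove amplification bias. Annotation release, strand option and whether the deposited counts were collapsed by identifier are not given in the sources used here. The authors also deposited rlog values, on a log2 scale, made with DESeq2.

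A gene entered the test when its counts summed to 10 or more, and edgeR 4.0.16 was used (R 4.3.3; TMM, glmQLFit in its default legacy form, glmQLFTest), with Benjamini-Hochberg adjustment over all genes. The standard error is the size of the log2 change divided by the root of F. DESeq2 1.42.0, limma 3.58.1, other scalings and filters, a replicate block and leaving out each library were alternatives. The scripts were tested on simulated data. Symbols were matched for 47224 of 47643 identifiers, positions came from GENCODE M21. Libraries of 1 population differed beyond counting noise (chi-square per degree of freedom 2.05 and 1.87). Whether a replicate number marks 1 mouse is not given. With 2 libraries a group, edgeR's p-values rest mostly on a spread shared across genes (52.2 prior degrees of freedom).

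The 10 genes and all lists were chosen with earlier results of these data known. Named were the 10 genes, each called gene of the 5 pathway lists, the 2 uncalled genes with the most counts in a list, defining markers, genes overlapping a member's exons, and the 3 genes nearest in pattern to the member with the smallest p in each direction. Receptor chains and STAT targets with a GAS match were also named. 1 further gene of the family was left out of the lists and is not reported here.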

Additional observations from a re-analysis of the deposited data

How the results depend on the processing

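Of the 10 JAK, STAT and SOCS genes, 0 were called as reported, and 1 (Socs3) was called with limma voom, with the replicate block in edgeR and without Il10-eGFP- replicate 1, so that leaving out a library gave 0 to 1. Among 140 values of the 10 genes under 14 alternatives, 131 kept their sign and their side of the threshold, 3 (all of Socs3) passed it, and 6 changed sign. The sign changes were Stat5b at -0.0099 with library size only, and otherwise came from leaving out 1 library, which gave log2 fold changes of -0.0723 to 0.130 for Jak1, -0.45 to 0.12 for Jak2, -0.22 to 0.10 for Stat5a and -0.20 to 0.29 for Stat5b.

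Over all genes, 393 were called as reported, 112 by the Wald test of DESeq2, 197 by limma from rlog values, 39 with a replicate block in DESeq2 and 177 at an adjusted p under 0.01, and 201 to 264 with 1 library left out. Of the pathway list genes, 10 were called as reported, 5 by the Wald test of DESeq2, 6 by limma from rlog values, 2 with a replicate block in DESeq2 and 7 at an adjusted p under 0.01, and 7 to 9 with 1 library left out. A stricter limit cannot call more genes, by construction, and the cause was not tested for the others. With library size as the only scaling, 190 of 367 calls were higher, against 226 of 393.

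Both populations carry replicate numbers 1 and 2. Over 6781 genes the difference between replicates in one population correlated with that in the other by 0.0177, a description across genes. Counting noise is part of these differences, so a low value cannot show that the libraries were unpaired. The replicate block in edgeR called 560 genes, 13 of the pathway lists and Socs3 (adjusted p = 0.0281). The replicate block in DESeq2 called neither Socs3 (adjusted p = 0.804) nor Pim1 (0.152). Depth limits the rest: intervals of the 10 genes were 0.591 to 1.32 wide on the log2 scale.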

Other observations

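Within the SOCS genes described, Socs3 gave 39.7% and 28.7% of the summed Socs1, Socs3 and Cish counts in Il10-eGFP- cells, against 49.6% and 56.3% in Il10-eGFP+ cells. These genes were set side by side after the values were seen, and no difference of the shares was tested.

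A GAS motif was also present for 4 of 15 receptor chain genes and 2 of 10 cytokine genes with a promoter window. It was present for 4 of 20 listed STAT targets, beside 9.55% of all genes with a window. Of the matching receptor chains, edgeR called Il7r and Il12rb2 higher, and did not call Ifnar1 (0.53 on the log2 scale) or Ifnar2 (-0.02). The matching targets Bcl6, Irf1, Lta and Il18r1 were not called by edgeR. Pim1 and Prdm1 had windows with no match. These are matches of letters in short windows, and binding was not measured.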
